A study of Homo sapiens with 8 samples.

Results

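Expression of the cytosolic ribosomal protein genes was described across 8 Affymetrix Human Gene 1.0 ST arrays hybridised with total RNA of human ovarian carcinoma cell lines. Genes were taken by symbol (RPL or RPS and a number, with the stalk proteins RPLP1 and RPLP2 and close paralogs, and without RPL22 and RPL22L1) from probe sets annotated to 1 gene symbol, and the brightest probe set stood for each gene. This gave 61 of the 18417 genes measured, 39 of the large and 22 of the small ribosomal subunit. RefSeq lists 81 protein-coding genes that fit the symbols. The other 20, among them RPLP0 and RPSA, had no probe set of their own symbol alone, and 11 of these were on probe sets shared with other symbols.

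The arrays fell into 4 groups of 2: untreated A2780, untreated A2780CP20, a subline of A2780, and A2780 given temsirolimus for 24 h or for 48 h. All cells were grown in RPMI with serum. Temsirolimus, an ester of rapamycin that inhibits the kinase complex mTORC1, came from a stock in DMSO, and the labels of the control arrays do not say whether vehicle was added. The labels give no dose. They also do not say that the 2 arrays of a group came from separate cultures, and p-values therefore cover the spread between arrays, which may be technical.

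Cytosolic ribosomal proteins are the protein part of the ribosomes that translate nuclear-encoded mRNAs. They are made in near-equal numbers, so their mRNAs are among the most abundant of a growing cell. Most begin with a terminal oligopyrimidine (TOP) motif, a C at the transcription start followed by a run of pyrimidines. Through this motif, and the RNA-binding protein LARP1, mTORC1 controls above all how well these mRNAs are translated and how stable they are. The arrays measured RNA levels and not translation.

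Starts of the genes on which the results turn are given below, so that those that moved can be set beside those that did not. Each window, from the RefSeq promoter table of assembly GRCh38.p14, runs 5′ to 3′ on the strand of the gene from 20 bases before the listed start to 20 bases from it on. Capitals mark the unbroken run of C and T that begins with a C at that start, where it had at least 4 further pyrimidines. Where a gene had several listed starts, the start with the longest such run is shown. The first 6 genes fell on the arrays labelled 24 h. RPL31 is on the plus strand at chr2:101002269-101002308, RPL29 on the minus strand at chr3:51995876-51995915 and RPL13 on the plus strand at chr16:89560662-89560701. RPL34 is on the plus strand at chr4:108620556-108620595, RPL27A on the plus strand at chr11:8682772-8682811 and RPL38 on the plus strand at chr17:74203658-74203697.
RPL31: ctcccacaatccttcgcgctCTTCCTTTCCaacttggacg
RPL29: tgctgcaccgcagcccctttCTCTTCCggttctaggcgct
RPL13: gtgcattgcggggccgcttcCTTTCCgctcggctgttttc
RPL34: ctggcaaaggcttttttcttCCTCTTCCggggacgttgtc
RPL27A: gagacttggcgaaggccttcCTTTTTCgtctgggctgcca
RPL38: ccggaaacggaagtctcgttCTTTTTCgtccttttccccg

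RPS21 and RPL10 rose on the arrays labelled 24 h, and RPLP1, RPLP2 and RPS6 were not called there. RPS21 is on the plus strand at chr20:62387083-62387122, RPL10 on the plus strand at chrX:154398357-154398396 and RPLP1 on the plus strand at chr15:69452798-69452837. RPLP2 is on the plus strand at chr11:809947-809986 and RPS6 on the minus strand at chr9:19380217-19380256. All 5 begin with a pyrimidine run at the start shown, as do the 6 shown above. Those 6 are not all that fell. Of the 15 members with no such run, 4 fell there too (RPL3, RPS15, RPS27L and RPS29). Of the 35 with one, 11 fell, and 15.3% of all genes were called lower. For RPL10 and RPL13, with 3 listed starts each, and RPL34, with 2, that start was chosen for its run.
RPS21: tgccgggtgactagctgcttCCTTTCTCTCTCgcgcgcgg
RPL10: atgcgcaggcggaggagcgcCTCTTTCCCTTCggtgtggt
RPLP1: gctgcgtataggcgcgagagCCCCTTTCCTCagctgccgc
RPLP2: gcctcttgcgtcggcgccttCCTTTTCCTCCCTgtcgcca
RPS6: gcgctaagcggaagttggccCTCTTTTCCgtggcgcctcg

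A last pair shows a paralog beside its partner. RPS27 is on the plus strand at chr1:153990742-153990781, and RPS27L, whose product differs from it by a few residues, is on the minus strand at chr15:63157458-63157497. The listed start of RPS27L held no such run.
RPS27: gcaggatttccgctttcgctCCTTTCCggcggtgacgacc
RPS27L: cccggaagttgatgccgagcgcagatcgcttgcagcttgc

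Over all genes of the set the start pattern was common. Of the 50 members with an entry in the promoter table, 35 (70.0%) carried it, against 892 of 14237 genes (6.27%). In the 250 bases before the start, read on both strands, the ETS factor core CCGGAAG was found in 18 members (36.0%) and in 14.3% of all genes. The GC box GGGCGG was in 66.0% of members and 63.7% of genes, and TATAAA in 10.0% and 11.3%. The E-box CACGTG was in 4.0% and 9.8%. The YY1 core AAGATGGC, for which the 50 bases from the start on were also read, was in 8.0% and 4.86%. A match is a description of letters, and several genes have more than 1 listed start. For the start pattern and the other motifs alike, such a gene was counted if any of its starts matched.

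Both arrays labelled 24 h stood out from the other 6 arrays. Across all genes they correlated with every other array at r = 0.950 to 0.952, whereas the other arrays correlated among themselves at 0.979 to 0.996 between groups; genes are not independent replicates, and these values carry no test. Mesenchymal and epithelial markers differed there too: COL1A2, a collagen chain, read 6.61 and 6.57 against 11.57 to 12.01 on the other arrays, and EPCAM, an epithelial adhesion molecule, 7.67 and 7.80 against 5.26 to 5.68. Of the 6 mesenchymal markers 4 were called lower (COL1A2, DCN, LUM and SNAI2), POSTN was called higher by 2.40 ± 0.14 (limma, adjusted p = 3.5e-06) and VIM was not called, and their summed log2 level was 50.9 to 51.0 against 65.6 to 69.4. Of the 7 epithelial markers 2 were called, with a summed level of 49.4 to 49.6 against 42.7 to 44.0. Of all genes, 30.1% were called at 24 h. Of the 6 markers of ovarian carcinoma, PAX8, WT1, MUC16, MSLN and FOLR1 read between 5.58 and 7.06 on every array and SOX17 between 7.20 and 7.92. SOX17 was called lower at 24 h (-0.37 ± 0.12, adjusted p = 0.0444) and MSLN higher in A2780CP20 (0.35 ± 0.10, adjusted p = 0.0472), and the summed level of the 6 was 37.7 to 40.3 over all arrays. Of the 4 leukocyte markers measured, PTPRC was called higher at 24 h by 0.52 ± 0.10 (limma, adjusted p = 0.00447). It read 4.48 and 4.54 there against 3.84 to 4.08 on the other arrays. CD3E, TYROBP and LYZ were not called at 24 h, and LYZ read 3.19 to 3.69 throughout. Whether these arrays hold the cells and the treatment that their labels name was not tested, so every value at 24 h below is given under a label that is in doubt. The part of these differences in the results on the arrays labelled 24 h was not tested, and results without those arrays are given where a comparison does not use them.

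Levels are log2 intensities, and each change is the log2 difference of group means ± the standard error of a limma fit, with 2 arrays per group and a Benjamini-Hochberg adjusted p over all 18417 genes. A gene was called at an adjusted p under 0.05. In what follows, 24 h and 48 h stand for the arrays with those labels. In this RNA from whole cultures, fewer cells that express a gene and less RNA per cell cannot be told apart. Ribosomal protein genes have many processed pseudogenes, near-copies of their mRNAs elsewhere in the genome. The members had a median of 12 RefSeq pseudogenes each, from 0 for 5 of them to 95 for RPL23A, so a probe set may also read RNA of other loci and each value is uncertain to that extent. Intensities of different probe sets are not comparable as amounts of RNA, so levels of single genes are compared only between arrays. The means of the members over the 8 arrays lay between 6.33 (RPL10L) and 13.94 (RPL5), and 34 of 61 were at 12 or above, a value close to the 99th percentile of all genes on an array (12.1 to 12.27).

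**Figure D1:**
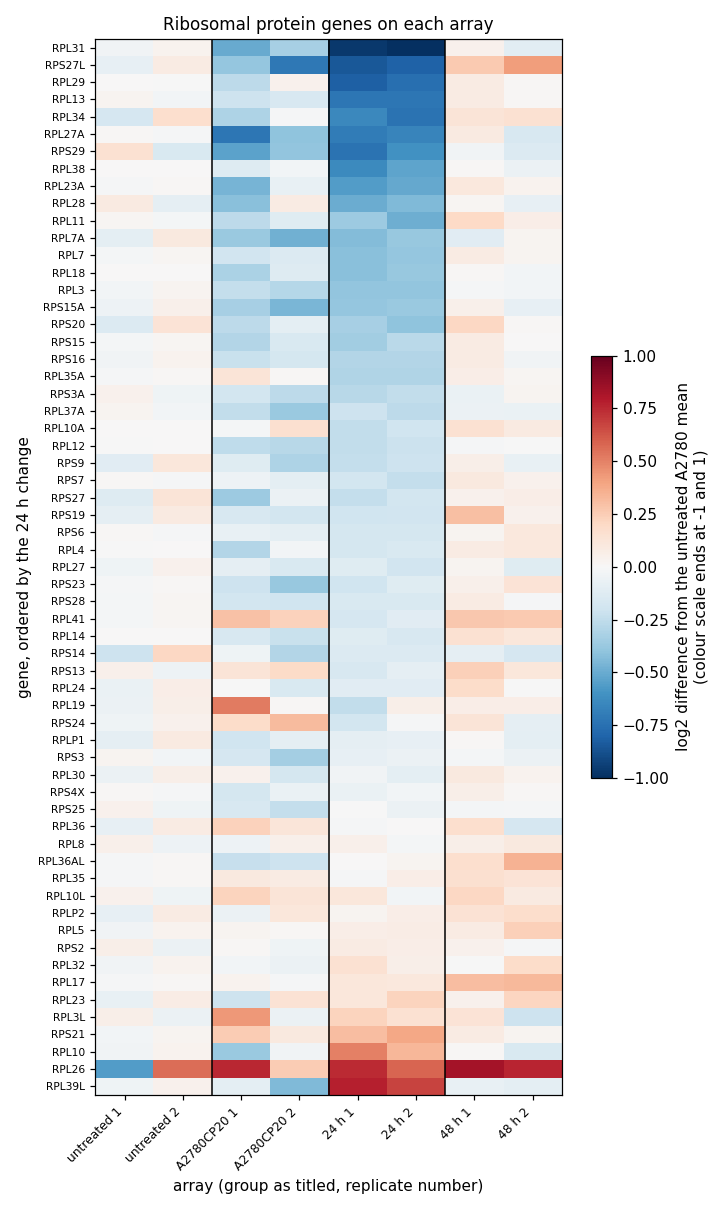
Each row is 1 of the 61 ribosomal protein genes and each column 1 of the 8 arrays, coloured by the log2 difference from the mean of the 2 untreated A2780 arrays, with red above and blue below it and the scale ending at -1 and 1. RPL31 to RPS29 at the top are bluest on both arrays labelled 24 h, RPL39L at the bottom is red there, and the columns labelled 48 h are pale except for RPL26 and RPS27L. RPL26 differs between the untreated arrays themselves.

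The comparison of temsirolimus at 24 h with untreated A2780 would ask, if the labels hold, how the drug changes expression in the parent line. On the arrays labelled 24 h, 18 of the 61 ribosomal protein genes fell and 3 rose, and 40 were not called. Of all genes tested, 30.1% were called, 14.9% higher and 15.3% lower, so the share of members called (34.4%) was near that of all genes, and most of those called were lower. The median change of the members was -0.16, against 0.01 over all genes and 0.01 over the 199 other genes with a mean of at least 12. The median level of the members was 12.14 and 12.15 on these arrays, 12.40 and 12.51 on the untreated arrays, and 12.63 and 12.44 on the arrays labelled 48 h. The arrays of 39 members were lower at 24 h without overlap and those of 10 higher, against 31.9% and 34.1% of all genes, and 28 members had an unadjusted p under 0.05, against 39.1%. The count of calls was 11 without untreated replicate 2, 10 without 24 h replicate 1 and 10 without 24 h replicate 2. RPL13, RPL27A, RPL29, RPL31, RPL34, RPL38, RPL39L, RPS27L and RPS29 were called under all 17 alternatives that were run.

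Large-subunit proteins made up 13 of the 18 that fell, and 39 of the 61 members. The share called was 38.5% for the large and 27.3% for the small subunit, against 30.1% of all genes. The difference between the subunits was not tested. RPL31, a protein at the rim of the tunnel through which the new peptide leaves, read 11.82 and 11.89 on the untreated arrays, 11.35 and 11.52 in A2780CP20, 10.89 and 10.86 with 24 h and 11.90 and 11.75 with 48 h of drug. The arrays labelled 24 h were the lowest and did not overlap any other group. The change at 24 h was -0.98 ± 0.10 (adjusted p = 0.000135), 1.97-fold lower. RPL31 has 64 RefSeq pseudogenes, and its second probe set changed by -0.99.

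RPL29, a protein of the surface of the large subunit, read 12.97 and 12.96 untreated, 12.70 and 13.01 in A2780CP20, 12.15 and 12.21 with 24 h and 13.05 and 12.98 with 48 h of drug. Only the arrays labelled 24 h were low. Its change was -0.79 ± 0.11 (adjusted p = 0.00099), and its second probe set gave -0.83. RPL13, another large-subunit protein, read 12.05 and 11.99 untreated, 11.81 and 11.86 in A2780CP20, 11.30 and 11.30 with 24 h and 12.10 and 12.03 with 48 h of drug. Its arrays at 24 h lay below all others, and it fell by 0.72 ± 0.09 (adjusted p = 0.000332).

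RPL34 read 12.82 and 13.15 untreated, 12.68 and 12.97 in A2780CP20, 12.34 and 12.25 with 24 h and 13.11 and 13.14 with 48 h of drug. Its untreated arrays lay apart from each other, yet both were above those labelled 24 h, and the change was -0.69 ± 0.14 (adjusted p = 0.00517). RPL27A read 12.85 and 12.83 untreated, 12.12 and 12.44 in A2780CP20, 12.14 and 12.18 with 24 h and 12.93 and 12.68 with 48 h of drug. Here 1 of the A2780CP20 arrays was as low as those labelled 24 h and the other lay between them and the untreated arrays. The change at 24 h was -0.68 ± 0.13 (adjusted p = 0.00415). RPL38, which lies near the exit tunnel and is needed for the translation of some Hox mRNAs in the mouse embryo, read 12.68 on both untreated arrays, 12.55 and 12.65 in A2780CP20, 12.04 and 12.15 with 24 h and 12.69 and 12.62 with 48 h of drug. It fell by 0.59 ± 0.09 (adjusted p = 0.00151), and no other group reached the levels at 24 h.

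The 2 proteins that bind 5S rRNA and, outside the ribosome, the p53 regulator MDM2 were RPL5 and RPL11. RPL11 read 12.72 and 12.68 untreated, 12.44 and 12.58 in A2780CP20, 12.34 and 12.21 with 24 h and 12.90 and 12.77 with 48 h of drug, and fell by 0.43 ± 0.10 at 24 h (adjusted p = 0.0122). RPL5 read 13.84 and 13.91 untreated, 13.90 and 13.89 in A2780CP20, 13.94 and 13.95 with 24 h and 13.96 and 14.11 with 48 h of drug. The arrays labelled 24 h were above the untreated ones by little, and the change was 0.07 ± 0.09 (adjusted p = 0.638). Dimmer probe sets of RPL5, with means of 12.98 and 9.07, changed by -0.10 and -0.18, so the direction of RPL5 is uncertain. The difference between RPL5 and RPL11 was not tested.

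The acidic stalk, which recruits translation factors to the large subunit, was measured by RPLP1 and RPLP2. RPLP2 read 12.96 and 13.13 untreated, 12.99 and 13.16 in A2780CP20, 13.07 and 13.11 with 24 h and 13.19 and 13.22 with 48 h of drug. Its untreated and 24 h arrays overlapped, with a difference of 0.05 ± 0.10 (adjusted p = 0.795), and RPLP1 differed by -0.09 ± 0.10 (adjusted p = 0.597). Of the 8 measured proteins of the exit tunnel and its rim, RPL23A, RPL31 and RPL38 were called lower and none higher. The share called was 37.5%, against 30.1% of all genes. RPL23A, with the most pseudogenes, fell by 0.54 ± 0.13 (adjusted p = 0.0127), and its second probe set changed by -0.52.

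The other large-subunit genes that fell were RPL3, RPL7, RPL7A, RPL18 and RPL35A, by 0.30 (RPL35A) to 0.41 (RPL7 and RPL7A). RPL3, which lies close to the peptidyl transferase centre, fell by 0.40 ± 0.08 (adjusted p = 0.00758). RPL28 had a change of -0.47 ± 0.16 and just missed the threshold (adjusted p = 0.0514).

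Of the 22 small-subunit genes, 5 fell and 1 rose. RPS29, a zinc-binding protein of the head of the small subunit, read 7.47 and 7.16 untreated, 6.78 and 6.92 in A2780CP20, 6.58 and 6.71 with 24 h and 7.28 and 7.18 with 48 h of drug. The arrays of A2780CP20 and of 24 h were all below those of the other groups, and the change at 24 h was -0.67 ± 0.12 (limma, adjusted p = 0.00357). RPS29 rests on 1 probe set with a mean of 7.01, below the median of all genes on an array (7.28 to 7.33). It has 33 RefSeq pseudogenes, and how well so dim a probe set reads its mRNA was not tested. RPS15A fell by 0.38 ± 0.10 (adjusted p = 0.0176) and RPS16 by 0.30 ± 0.09 (adjusted p = 0.0375). RPS15 fell by 0.31 ± 0.09 (adjusted p = 0.0364), but its second, dimmer probe set changed by 0.27 and the call was lost with the mean of both (adjusted p = 0.902), so its direction is uncertain.

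RPS6, the ribosomal protein phosphorylated by the S6 kinases that mTORC1 activates, read 12.58 and 12.55 untreated, 12.49 and 12.47 in A2780CP20, 12.39 on both arrays with 24 h and 12.59 and 12.67 with 48 h of drug. The arrays at 24 h were the lowest without overlap, but the change of -0.18 ± 0.09 did not pass the test (adjusted p = 0.169). RPS19, the gene most often mutated in Diamond-Blackfan anaemia, differed by -0.20 ± 0.11 (adjusted p = 0.248), and RPS4X, encoded on the X chromosome, by -0.05 ± 0.09 (adjusted p = 0.761). Of the 13 measured genes mutated in that anaemia, RPL11, RPL18, RPL31, RPL35A and RPS29 fell and none rose. The share called was 38.5%, against 30.1% of all genes.

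The 3 genes that rose included a paralog. RPL39L, a vertebrate copy of the exit-tunnel protein RPL39 best known from the testis, read 7.51 and 7.60 untreated, 7.46 and 7.11 in A2780CP20, 8.33 and 8.23 with 24 h and 7.48 and 7.46 with 48 h of drug. Both arrays labelled 24 h were above all others, and the change was 0.73 ± 0.12 (adjusted p = 0.00231), 1.65-fold higher. Its partner RPL39 had no probe set of 1 symbol. RPL10, an X-linked protein that is among the last to join the large subunit, read 9.94 and 10.01 untreated and 10.48 and 10.31 at 24 h, a change of 0.42 ± 0.13 (adjusted p = 0.0417). This call held in 10 of 17 alternatives. It rests on 1 probe set with a mean of 10.01. Brighter probe sets that name RPL10 with other symbols, with means of 11.57 to 13.73, were left out by the rule. RPS21 read 9.18 and 9.23 untreated and 9.51 and 9.59 at 24 h, a change of 0.35 ± 0.10 (adjusted p = 0.0248). Both pairs of groups were apart, by less than for RPL39L.

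RPS27L, a paralog that is a known target of p53, moved the other way to RPL39L. It read 8.11 and 8.28 untreated, 7.81 and 7.48 in A2780CP20, 7.35 and 7.39 with 24 h and 8.46 and 8.61 with 48 h of drug. No 2 groups overlapped, and the order from low to high was 24 h, A2780CP20, untreated and 48 h. The change at 24 h was -0.83 ± 0.13 (adjusted p = 0.00142), while RPS27 changed by -0.21 ± 0.13 (adjusted p = 0.274). RPS27L and RPL39L have no RefSeq pseudogene. The paralogs RPL36AL (0.02 ± 0.09), RPL10L (0.04 ± 0.10) and RPL3L (0.19 ± 0.17), the last a protein of heart and skeletal muscle, were not called, with adjusted p of 0.931, 0.813 and 0.467.

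**Figure D2:**
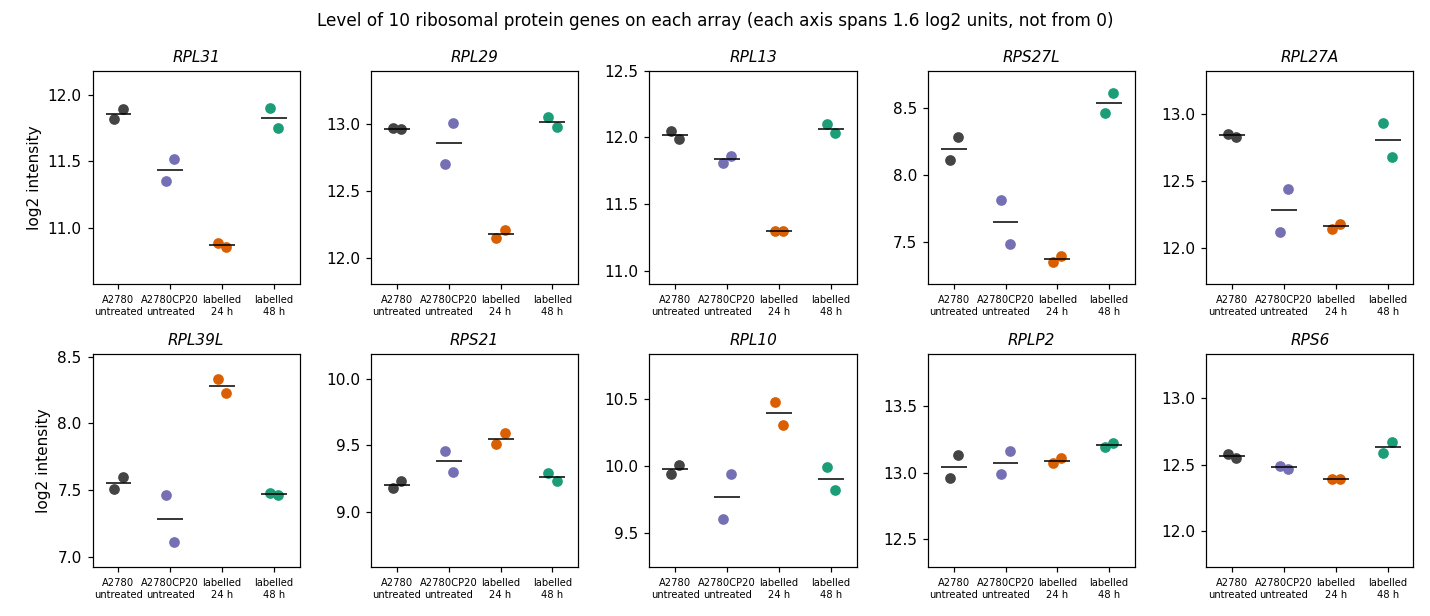
Points are the log2 intensity of 1 gene on each of the 8 arrays, grouped by label along the x axis, and bars are the means of 2 arrays; every panel spans 1.6 log2 units and does not start at 0. RPL31, RPL29, RPL13 and RPS27L are lowest on the arrays labelled 24 h, RPL27A is as low on 1 of the A2780CP20 arrays, RPL39L, RPS21 and RPL10 are highest at 24 h, and RPLP2 overlaps between untreated, A2780CP20 and 24 h.

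Genes that carried the start pattern and those that did not were described side by side, a split added after the data were seen. Of the 35 with it, 11 fell and 2 rose at 24 h (37.1% called), with a median change of -0.20. Of the 15 without it 4 fell (26.7% called), with a median of -0.16. Both shares were near the 30.1% of all genes called, and the difference was not tested. RPS29 and RPL3, for which no run was found at the listed start, were among those that fell. The change at 24 h had a Spearman correlation of -0.18 with the number of pseudogenes and -0.17 with the mean level over the 61 genes, which share arrays and are not independent. Of the 30 members with more pseudogenes than the median 11 fell and 1 rose, and of the other 31, 7 fell and 2 rose.

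For the 21 members with several probe sets, the second-brightest probe set had the same sign at 24 h in 17. Of the 8 among them that were called, 7 had the same sign, RPS15 being the exception. Those probe sets can share pseudogene matches and are not independent.

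**Figure D3:**
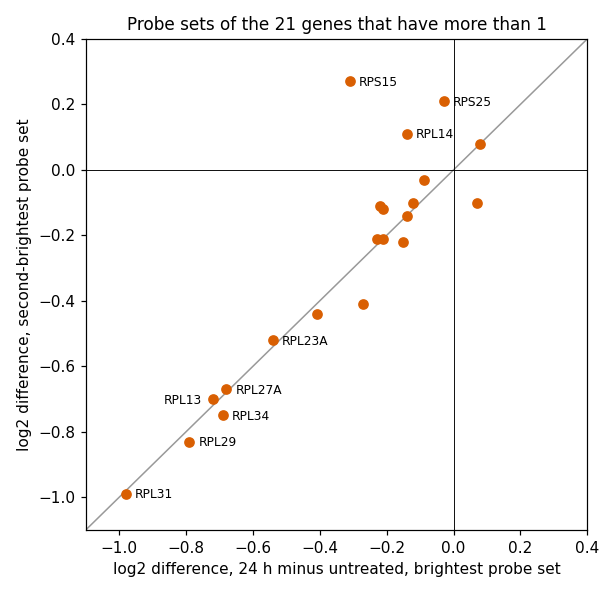
Each point is 1 of the 21 ribosomal protein genes with more than 1 probe set, with the log2 difference between 24 h and untreated A2780 in its brightest probe set on the x axis and in its second-brightest on the y axis; the line marks equal values. RPL31, RPL29, RPL34, RPL13, RPL27A and RPL23A lie close to the line at values from -0.98 to -0.54. RPS15, RPS25 and RPL14 lie above it with opposite signs, and RPL5 (0.07 and -0.10) lies below it, also with opposite signs.

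At 48 h none of the 61 ribosomal protein genes was called against untreated A2780. Of all genes tested, 0.179% were called by limma, and at an unadjusted p under 0.05 there were 5 members of 61 against 11.1% of all genes. Of all genes, 0.163% were called higher and 0.0163% lower. The arrays of 23 members were higher without overlap and those of 2 lower, against 19.6% and 27.2% of all genes. The median change of the members was 0.05, against -0.03 over all genes. The 5 were RPL17 (0.32 ± 0.08), RPL26 (0.80 ± 0.31), RPL36AL (0.26 ± 0.09), RPL41 (0.27 ± 0.09) and RPS27L (0.34 ± 0.13), all higher at 48 h, with adjusted p of 0.241 to 0.406. They are named because so few passed, after their values were seen. For RPL26, a protein at the rim of the exit tunnel with 36 pseudogenes, the untreated arrays read 8.60 and 9.71 and the arrays labelled 48 h 9.99 and 9.92, so the difference is smaller than the gap between the untreated arrays. RPL17 read 9.28 and 9.31 untreated and 9.60 and 9.62 at 48 h, with a close spread in both groups. It rests on 1 probe set with a mean of 9.4 and has 52 RefSeq pseudogenes. Brighter probe sets that name RPL17 with another symbol, with means of 12.69 and 13.19, were left out by the rule. No member was called under any of the alternatives that were run.

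**Figure D4:**
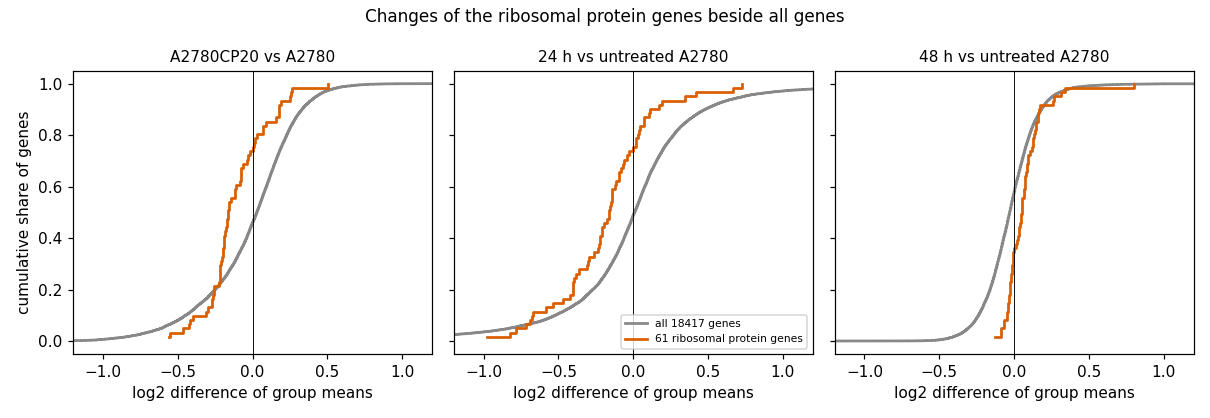
Curves give the share of genes with a change at or below the value on the x axis (log2 difference of group means), for the 61 ribosomal protein genes and for all 18417 genes, in 3 comparisons; the axis ends at -1.2 and 1.2, beyond which some genes lie. In the first and second panels the curve of the ribosomal protein genes runs to the left of that of all genes over most of its length (medians -0.17 and -0.16 against 0.03 and 0.01), and in the third it lies slightly to the right (0.05 against -0.03).

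The times were also compared directly. Between the arrays labelled 48 h and those labelled 24 h, 25 members were higher at 48 h and 3 were lower, with a median difference of 0.25 against -0.06 over all genes. Of all genes tested 31.0% were called, 15.2% higher and 15.7% lower, against 45.9% of the members. The arrays of 46 members were higher at 48 h without overlap and those of 5 lower, against 29.7% and 39.6% of all genes, and 36 members had an unadjusted p under 0.05, against 40.9%. RPS27L differed most, by 1.17 ± 0.13 (adjusted p = 0.000192), then RPL31 by 0.95 ± 0.10 (adjusted p = 0.000159), RPL29 by 0.84 ± 0.11 (adjusted p = 0.000673) and RPL34 by 0.83 ± 0.14 (adjusted p = 0.00194). RPL39L was lower at 48 h by 0.81 ± 0.12 (adjusted p = 0.00124), as were RPL10 and RPS21. RPL41, the smallest ribosomal protein, was higher at 48 h by 0.41 ± 0.09 (adjusted p = 0.00707) and had not been called at 24 h (-0.14 ± 0.09). RPS19 was higher at 48 h by 0.37 ± 0.11 (adjusted p = 0.0385). The count was 11 without 24 h replicate 1, 14 without 24 h replicate 2, 11 without 48 h replicate 1 and 16 without 48 h replicate 2.

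The comparison of A2780CP20 with A2780, both untreated, asks how the subline differs from its parent. In A2780CP20, 7 of the 61 ribosomal protein genes were lower and none higher. Of all genes tested 18.4% were called, 6.37% higher and 12.0% lower, so the share of members called (11.5%) was under that of all genes and the share called lower was near it. The median change of the members was -0.17 against 0.03 over all genes, and -0.09 over the 199 other genes with a mean of at least 12. With quantile normalization the median was -0.083, and 1 member was called higher and 5 lower. The arrays of 32 members were lower in A2780CP20 without overlap, against 27.0% of all genes, and those of 7 were higher, against 28.3%. An unadjusted p under 0.05 was found for 16 members, against 33.1% of all genes.

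RPL27A, described above, read 12.12 and 12.44 in A2780CP20 against 12.85 and 12.83 in A2780, a change of -0.56 ± 0.13 (adjusted p = 0.0201). Its second-brightest probe set changed by -0.58, but its dimmest, with a mean of 8.78, changed by 0.45. With the mean of its probe sets the change was -0.23 and the call was lost (limma, adjusted p = 0.11). RPS27L fell by 0.55 ± 0.13 (adjusted p = 0.0209), RPS29 by 0.47 ± 0.12 (adjusted p = 0.0336) and RPL31 by 0.42 ± 0.10 (adjusted p = 0.0236). RPL7A, a large-subunit protein with 80 pseudogenes, read 12.07 and 12.27 in A2780 and 11.80 and 11.69 in A2780CP20, a fall of 0.43 ± 0.11 (adjusted p = 0.0268). RPS15A read 12.75 and 12.85 against 12.47 and 12.34, a fall of 0.40 ± 0.10 (adjusted p = 0.0256). RPL37A read 10.02 and 9.96 against 9.74 and 9.62, a fall of 0.31 ± 0.09 (adjusted p = 0.0454). In all 7 the arrays of the groups were apart.

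RPL5 (0.02 ± 0.09, adjusted p = 0.901), RPLP2 (0.03 ± 0.10, adjusted p = 0.867) and RPS6 (-0.09 ± 0.09, adjusted p = 0.528) were not called in A2780CP20. Of the paralogs other than RPS27L, RPL39L differed by -0.27 ± 0.12 and RPL36AL by -0.22 ± 0.09, with adjusted p of 0.167 and 0.143. RPL26 gave the highest value, 0.51 ± 0.31 (adjusted p = 0.294), with overlapping arrays.

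None of the 7 calls held under all alternatives. No member was called when only the A2780CP20 and A2780 arrays were fitted or without untreated replicate 1. The count was 2 without untreated replicate 2, 11 without A2780CP20 replicate 2, and 3 without 24 h replicate 1, 24 h replicate 2 or both of these arrays, which enter only the shared estimate of the spread.

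Other mRNAs with a TOP motif, from genes outside the symbol rule, were examined beside the 61 members. These were 17 measured genes, mostly of translation factors and RNA-binding or chaperone proteins. FAU among them encodes a ribosomal protein of the small subunit under a symbol outside the rule, and its change at 24 h was 0.18 ± 0.11 (adjusted p = 0.281). At 24 h 8 of 17 (47.1%) fell and none rose, with a median of -0.28. Of all genes, 15.3% were called lower and 14.9% higher. EIF4B, an initiation factor that assists the helicase EIF4A, read 13.03 and 13.09 untreated, 12.57 and 12.58 in A2780CP20, 12.17 and 12.21 with 24 h and 13.09 and 13.10 with 48 h of drug. Its change at 24 h was -0.87 ± 0.08 (adjusted p = 9.59e-05), and the arrays of both A2780CP20 and 24 h were below the rest. EIF3F, a subunit of initiation factor eIF3, fell by 0.75 ± 0.10 (adjusted p = 0.000777), the histone chaperone NAP1L1 by 0.59 ± 0.10 (adjusted p = 0.00203) and EIF3L by 0.52 ± 0.10 (adjusted p = 0.00583). EEF1A1, which brings aminoacyl-tRNA to the ribosome, differed by -0.03 ± 0.09 (adjusted p = 0.869). In A2780CP20 6 of 17 were lower and none higher, against 12.0% and 6.37% of all genes. At 48 h none was called, against 0.179% of all genes. Between the times 10 were higher at 48 h than at 24 h, against 15.2% of all genes.

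**Figure D5:**
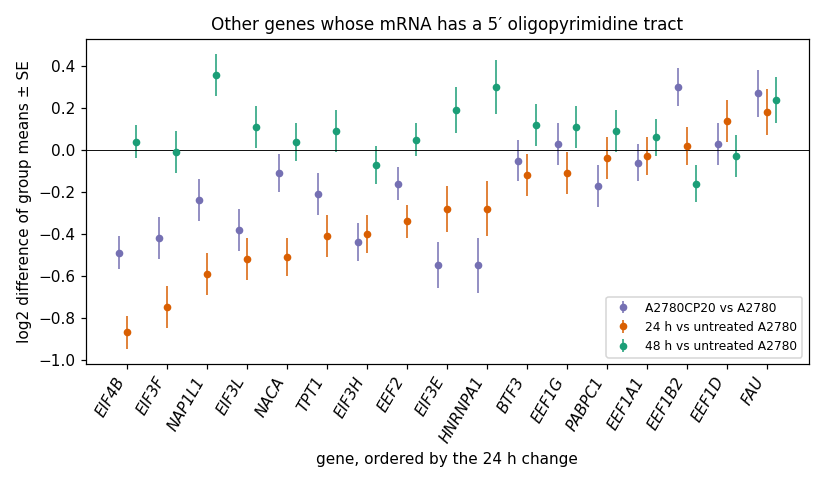
Points are the log2 difference of group means for 17 genes outside the symbol rule, FAU included, whose mRNA has a TOP motif, in 3 comparisons that share the untreated A2780 arrays, and lines are ± 1 standard error of the limma fit. EIF4B, EIF3F and NAP1L1 are lowest at 24 h (-0.87, -0.75 and -0.59), and the values at 48 h lie between -0.16 and 0.36.

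Genes that control TOP mRNAs or make ribosomal proteins ready for assembly did not share 1 direction. Of 15 genes of mTORC1 signalling, LARP proteins and MYC, 2 rose and 3 fell at 24 h (33.3% called, against 30.1% of all genes). MYC, a transcription factor that drives ribosome production, fell by 1.42 ± 0.13 (adjusted p = 7.83e-05) and RPTOR, the scaffold subunit of mTORC1, by 0.73 ± 0.09 (adjusted p = 0.000309). TSC1, an inhibitor of the pathway, fell by 0.47 ± 0.13 (adjusted p = 0.0277), and RPS6KB2, an S6 kinase, rose by 0.56 ± 0.10 (adjusted p = 0.0025). In A2780CP20 5 rose and none fell, against 6.37% and 12.0% of all genes. EIF4EBP1, a translation repressor that mTORC1 inactivates, rose by 0.62 ± 0.12 (adjusted p = 0.00956) and LARP1 by 0.58 ± 0.15 (adjusted p = 0.0306). Of 13 chaperones, importins and ubiquitin ligases that act on ribosomal proteins, 6 rose and 4 fell at 24 h (76.9% called, against 30.1% of all genes). PDCD2L, a chaperone relative of the RPS2 partner PDCD2, rose by 1.47 ± 0.12 (adjusted p = 2.58e-05), TSR2, the RPS26 chaperone, by 0.90 ± 0.14 (adjusted p = 0.00179) and GRWD1, the RPL3 chaperone, by 0.72 ± 0.09 (adjusted p = 0.000423). The importin IPO5 fell by 0.54 ± 0.08 (adjusted p = 0.0015). In A2780CP20 2 of the 13 were called higher and none lower (15.4% called, against 18.4% of all genes). GRWD1 and UBE2O, which marks unassembled ribosomal proteins for destruction, were each higher there by 0.49 ± 0.09. None of either list was called at 48 h, against 0.179% of all genes.

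Mitochondrial ribosomal protein genes, nuclear genes for a separate ribosome, were counted the same way for comparison. Of 73 measured, 32 rose and none fell at 24 h, with a median of 0.24, beside 3 up, 18 down and a median of -0.16 for the cytosolic set. Of all genes, 14.9% were called higher and 15.3% lower. In A2780CP20 19 rose and 2 fell, against 6.37% and 12.0% of all genes, with a median of 0.20. At 48 h none was called, against 0.179% of all genes. The difference between the sets was not tested.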

How the data were processed

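Total RNA was hybridised to 8 arrays, 1 biotin-labelled sample each. The deposited values were read as log2 intensities from their range, since no label states the log base, with 2 decimals and array medians of 6.66 to 6.72. The submitters' processing notes name Partek without version or role. How background, normalization and probe summary were handled is not given in the sources, and could affect the small changes of bright genes. Gene names came from the annotation of the platform: of 33297, 19460 had 1 symbol, 1754 several and 12083 none. Only those with 1 symbol were used, and the one with the highest mean stood for a gene (769 genes had several).

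Groups came from sample titles. The test was limma 3.58.1 in R 4.3.3, 1 coefficient per group on all 8 arrays, empirical Bayes moderation (4 residual and 4.48 prior degrees of freedom), two-sided, Benjamini-Hochberg over 18417 genes, checked on simulated data. The number of arrays limits the precision. Comparisons with untreated A2780 share its arrays.

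Members, lists and tests were chosen with earlier results of these data known. Named by rule were up to 10 called members per direction and comparison with the largest change and no overlap of arrays, a fixed set with the paralogs, and up to 4 called genes of each other list. Others were named after their values were seen. Pseudogenes, promoters and starts are those of RefSeq GRCh38.p14. Bright genes were those at or above 12, the whole-number part of the lowest array's 99th percentile. Alternatives were quantile normalization, median centring, a filter on dim genes, other probe sets, each array left out, a replicate block, fewer groups, other priors and other references.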

Additional observations from a re-analysis of the deposited data

Results flagged for a closer look

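For 28 members the changes at 48 h and at 24 h, both against untreated A2780, differed in limma's direct test of 48 h against 24 h (adjusted p under 0.05; 31.0% of all genes were called). The differences, 48 h minus 24 h on the log2 scale, were lowest for RPL39L (-0.81), RPL10 (-0.49) and RPS21 (-0.29), the 3 genes that had risen at 24 h. In 8 small-subunit genes the difference was positive: RPS7 (0.28), RPS13 (0.30), RPS16 (0.32), RPS15 (0.35), RPS15A (0.37), RPS19 (0.37), RPS20 (0.48) and RPS29 (0.59). In 16 large-subunit genes it was positive as well: RPL14 (0.27), RPL10A (0.35), RPL35A (0.35), RPL7A (0.37), RPL3 (0.38), RPL18 (0.39), RPL41 (0.41), RPL7 (0.46), RPL11 (0.56), RPL38 (0.56), RPL23A (0.61), RPL27A (0.65), RPL13 (0.77), RPL34 (0.83), RPL29 (0.84) and RPL31 (0.95). RPS27L, a small-subunit paralog, had the highest value (1.17). For RPL14 the second probe set gave 0.06 and the call was lost in some alternatives, with an adjusted p between 0.00274 and 0.707. RPL11, RPL13, RPL29, RPL31, RPL34, RPL38, RPL39L, RPL7 and RPS27L were called in all 17 alternatives.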

How the results depend on the processing

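With 2 arrays per group, counts of calls moved more than changes did. Of the 7 calls in A2780CP20, 0 were made in all alternatives run, against 9 of 21 at 24 h and 9 of 28 between 48 h and 24 h. For A2780CP20 against A2780, 7 members called became 0 with only the 2 groups fitted, 19 with an intensity trend in the prior, 11 without the dimmest 25% of genes and 3 without both arrays labelled 24 h. Leaving out each array in turn gave 0 to 11. At 24 h this gave 10 to 27, and between 48 h and 24 h 11 to 34. The median of the members in A2780CP20 was -0.165 and became -0.075 after subtracting that of other genes with a mean of at least 12, a reference chosen after seeing the data, and quantile normalization gave -0.083. Among the members named by the rule or with an unadjusted p under 0.05, RPS15 alone changed sign in a call, with its second-brightest probe set, to 0.72 in A2780CP20 and 0.27 at 24 h. Otherwise 177 values of single members lost the threshold and 84 gained it, mostly with an array left out. With a replicate block the counts were 7, 20, 0 and 27 and the medians were unchanged. Same-numbered arrays deviated together at r = 0.002 to 0.181, and with 2 numbers the samples share only a number.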

Other observations

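RPL41's 2 brightest probe sets held identical values, giving 0.26 in A2780CP20, -0.14 at 24 h and 0.27 at 48 h in both, so they count as 1 measurement. Its dimmest probe set, with a mean of 7.81, gave -0.17, -0.14 and 0.01. Between the brightest and the second-brightest probe set of a gene, RPS15 had the widest gap, at 0.94 in A2780CP20 against A2780 (-0.22 and 0.72). Dimmer probe sets were not part of that ranking. The dimmest of RPL27A, with a mean of 8.78, gave 0.45 in A2780CP20 against -0.56 in its brightest. RPL26 had a gap of over 1 log2 unit between the untreated arrays (8.60 and 9.71), wider than for any other ribosomal protein gene, and lay between 9.41 and 9.99 on the other 6 arrays. The 8 members on chromosome 19 were all at or below -0.01 at 24 h, and 3 of them fell (37.5%). Of all 61 members 46 were below 0 there and 34.4% were called, against 30.1% of all genes. The difference between chromosome 19 and the other members was not tested.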
